A study of Homo sapiens with 4 samples.

Results

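10 gene symbols encode the enzymes examined here, which hydroxylate and cross-link collagen: the lysyl oxidase LOX with its relatives LOXL1, LOXL2, LOXL3 and LOXL4, the lysyl hydroxylases PLOD1, PLOD2 and PLOD3, and the prolyl 4-hydroxylase subunits P4HA1 and P4HA2. They were chosen by symbol, as were the lists set beside them, with earlier results of these data known. The shares called below are thus not those of a blind choice. These enzymes make up 10 of the 23228 genes counted. All 10 were found and all 10 passed the filter on low counts. The cells were U87 MG, a long-established line from a human glioblastoma, in serum-containing medium. Cells received PELP1 siRNA or control siRNA, each group gave 2 libraries, and RNA was taken 72 hours after transfection. PELP1 is a scaffold protein of nuclear receptor complexes and of ribosome assembly. The comparison asks which transcripts change when it is silenced in 1 cell line with an siRNA whose sequence is not given in the sources used here.

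Collagen is modified before and after it leaves the cell. In the endoplasmic reticulum, prolyl 4-hydroxylases (P4HA subunits joined to the subunit P4HB) hydroxylate proline, which stabilises the triple helix, and lysyl hydroxylases (PLOD) hydroxylate lysine, which prepares cross-link sites. Both kinds of enzyme need iron, 2-oxoglutarate and ascorbate. Outside the cell, copper-dependent lysyl oxidases turn lysine and hydroxylysine side chains into aldehydes that react to form cross-links between collagen or elastin molecules. LOX, PLOD2, P4HA1 and P4HA2 are textbook targets of the hypoxia-inducible factor HIF-1.

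Counts assigned to genes came to 18670162 to 19389684 in the PELP1 siRNA libraries and 19662271 to 22858988 in the control siRNA libraries. The study's design text says only that samples were run in duplicate, so the p-values measure the spread between these libraries, which may be technical. PELP1 itself stood at 16.4 ± 1.79 CPM (the usual depth-scaled count unit, here after TMM scaling) in PELP1 siRNA libraries and 76.0 ± 2.90 CPM in control siRNA libraries (mean ± SD, n = 2 each). All 5 markers listed for such a glioma line were expressed, with a summed level of 9958 to 10791 CPM with PELP1 siRNA and 12010 to 12046 CPM with control siRNA. Of these, VIM (log2 fold change -0.28, adjusted p = 8.73e-04), NES (-0.51, adjusted p = 2.90e-04) and CD44 (-0.32, adjusted p = 1.92e-04) were called lower, as 4 of the enzymes were, and S100A6 and CHI3L1 gave no call. AQP4 and ALDH1L1 of the astrocyte list and MOG of the oligodendrocyte list had 0 counts in all 4 libraries. So had AIF1 and CD3E of immune cells, CLDN5 of endothelium and TYR of melanocytes. Other markers of these lists had low counts. The astrocyte marker GFAP stood at 1.53 CPM with PELP1 siRNA and 1.37 CPM with control siRNA, and SLC1A2 at 1.52 and 1.32 CPM. The oligodendrocyte marker MBP stood at 1.06 CPM with PELP1 siRNA and 1.02 CPM with control siRNA. Summed levels stayed at or under 3.11 CPM for the astrocyte, oligodendrocyte, endothelial, epithelial and melanocyte lists. The epithelial marker EPCAM was called higher, at 1.60 CPM with PELP1 siRNA and 0.782 CPM with control siRNA (log2 fold change 1.02, adjusted p = 0.0188). The neuronal list summed to 57.7 to 62.9 CPM with PELP1 siRNA and 72.5 to 78.1 CPM with control siRNA, mostly SNAP25. SNAP25 was called lower, at 31.3 CPM with PELP1 siRNA and 48.3 CPM with control siRNA (log2 fold change -0.63, adjusted p = 9.03e-06). SYT1 (0.28) and GAD1 (-0.20) gave no call. The myeloid and lymphoid list summed to 17.4 to 19.6 CPM with PELP1 siRNA and 20.8 to 21.3 CPM with control siRNA, mostly CSF1R. The part of these markers in the results was not tested.

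4 of the 10 enzymes (LOX, LOXL3, PLOD2 and PLOD1) fell with PELP1 siRNA, 1 (P4HA1) rose, while the other 5 gave no call. A call is an adjusted p below 0.05 in edgeR's quasi-likelihood test, with Benjamini-Hochberg adjustment across the 13234 tested genes. Over all genes tested, 15.0% were lower, 12.9% were higher and 27.9% were called in either direction. The libraries of one group lay wholly above those of the other for 9 of the 10 enzymes, against 64.2% of all genes tested. DESeq2 called the same 5 enzymes in the same directions, against 21.4% of the genes to which it gave an adjusted p. The median log2 fold change of the 10 enzymes was -0.14, and that of all genes tested was 0.00088. In bulk RNA, fewer cells expressing a gene and less of its RNA per cell cannot be told apart. Scaling by total counts alone changed the balance over all genes, with 41.3% of called genes lower instead of 53.6%. Under that scaling the same 4 enzymes fell and LOXL2 joined P4HA1 as higher.

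**Figure D1:**
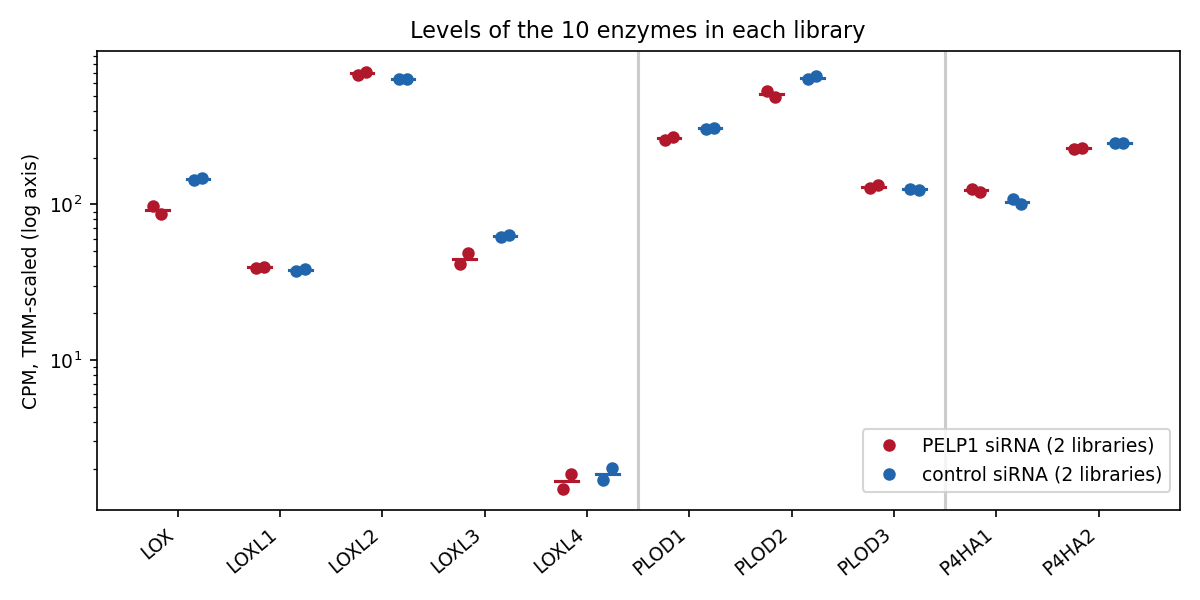
Level of each enzyme in each library (CPM, TMM-scaled, log axis), with PELP1 siRNA libraries in red and control siRNA libraries in blue; points are single libraries and bars are group means. LOX and LOXL3 are separated most clearly, LOXL2 and PLOD2 are the most abundant, and LOXL4 lies under 2.1 CPM in all 4 libraries.

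LOX, the lysyl oxidase after which the family is named, fell most. Its gene lies on the minus strand of chromosome 5 (GRCh37 121398890 to 121414108). LOX had 97.6 and 86.9 CPM in the PELP1 siRNA libraries, against 144 and 148 CPM in the control siRNA libraries. These came from 1923 and 1649 counts with PELP1 siRNA and 2801 and 3309 counts with control siRNA. Both PELP1 siRNA libraries lay below both control siRNA libraries. The mean was 92.3 ± 7.59 CPM with PELP1 siRNA and 146 ± 2.27 CPM with control siRNA (SD, n = 2 each). LOX fell by 36.8%, with a log2 fold change of -0.66 (SE 0.073, adjusted p = 3.15e-07), the size ranking 987 of 13234 genes tested. It kept its call in all 11 alternative fits, with log2 fold changes of -0.75 to -0.58. LOX shares 2.47% of its exon bases with SRFBP1 on the opposite strand, which had 27.0 and 25.7 CPM with PELP1 siRNA and 25.2 and 29.1 CPM with control siRNA and was not called (adjusted p = 0.767).

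LOXL3, a lysyl oxidase-like enzyme with scavenger receptor domains, fell with it. Its levels were 41.2 and 48.5 CPM with PELP1 siRNA and 61.4 and 63.2 CPM with control siRNA, with no overlap between the groups. The mean was 44.8 ± 5.20 CPM with PELP1 siRNA and 62.3 ± 1.28 CPM with control siRNA (SD, n = 2 each), and the log2 fold change was -0.48 (SE 0.089, adjusted p = 2.77e-04). LOXL3 kept its call in all 11 alternative fits, with an adjusted p of at most 0.0178. It lies on the minus strand of chromosome 2 (GRCh37 74759385 to 74782817) and shares 25.5% of its exon bases with HTRA2 and DOK1 on the opposite strand. Neither partner was called: HTRA2 differed by -0.036 on the log2 scale (adjusted p = 0.814) and DOK1 by 0.085 (adjusted p = 0.536). How reads in the shared exons were assigned is not given in the sources used here.

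The other lysyl oxidases did not pass the threshold. LOXL2, which also cross-links collagen IV of basement membranes, was the most abundant of the family, at 679 and 714 CPM with PELP1 siRNA and 643 and 644 CPM with control siRNA. Both PELP1 siRNA libraries lay above both control siRNA libraries, but the log2 fold change of 0.11 had a 95% interval of -0.011 to 0.24 (adjusted p = 0.167). LOXL2 was called higher when counts were scaled by total (adjusted p = 0.0466). It was also called without PELP1 siRNA library 1 (log2 fold change 0.15), where the spread comes from the control siRNA pair alone. Its log2 fold changes ran from 0.081 to 0.16 over its 11 alternatives. LOXL1, which is needed for elastic fibre upkeep, had 38.9 and 39.8 CPM with PELP1 siRNA and 37.1 and 38.3 CPM with control siRNA. It lies on the plus strand of chromosome 15 (GRCh37 74218330 to 74244478), where it shares 9.21% of its exon bases with LOXL1-AS1 on the opposite strand. Its groups lay close together, with a log2 fold change of 0.063 (95% interval -0.12 to 0.24, adjusted p = 0.632). LOXL4, another scavenger receptor-type member, was nearly silent, at 29 and 35 counts with PELP1 siRNA and 33 and 45 counts with control siRNA. Its libraries overlapped, and its interval of -0.72 to 0.38 on the log2 scale holds a fall of the size seen for LOX. These counts thus cannot tell such a fall from no change.

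Ratios of counts inside 1 library set the lysyl oxidases beside each other without any scaling between libraries. For each LOXL2 count there were 0.144 and 0.122 LOX counts in the PELP1 siRNA libraries, against 0.225 and 0.229 in the control siRNA libraries. LOXL3 stood at 0.0607 and 0.0680 counts per LOXL2 count with PELP1 siRNA, against 0.0955 and 0.0982 with control siRNA. LOXL1 per LOXL2 was close in both groups, at 0.0574 and 0.0558 with PELP1 siRNA and 0.0577 and 0.0594 with control siRNA. The chains of type I collagen, a substrate, gave further ratios. LOX stood at 0.101 and 0.0850 counts per COL1A2 count with PELP1 siRNA, against 0.196 and 0.203 with control siRNA, and COL1A2 was itself called higher. Per count of the other chain, COL1A1, LOX stood at 0.254 and 0.197 with PELP1 siRNA, against 0.325 and 0.353 with control siRNA. With 2 libraries a group, no exact test over libraries can pass 0.05, so these ratios carry no p.

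**Figure D2:**
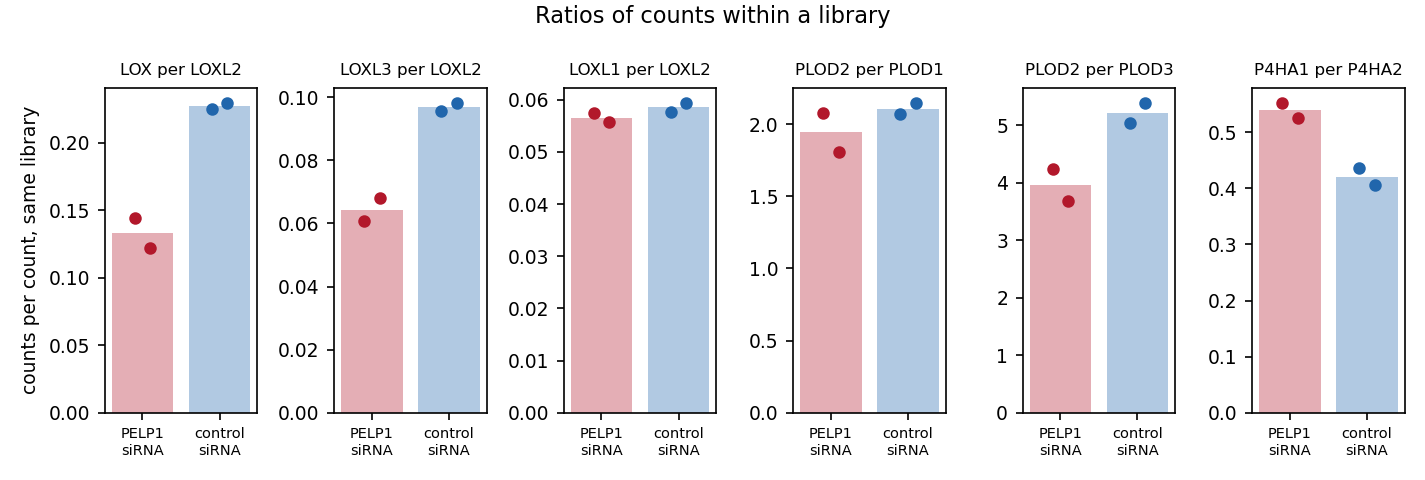
Ratio of the counts of 2 enzymes within each library, with PELP1 siRNA in red and control siRNA in blue; points are libraries, bars are means, and every axis starts at 0. LOX and LOXL3 per LOXL2 are lower with PELP1 siRNA, LOXL1 per LOXL2 is about the same, and P4HA1 per P4HA2 is higher.

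Scaled by the length of annotated exons, LOXL2 made up 75.5 ± 0.641% of lysyl oxidase transcripts with PELP1 siRNA and 67.9 ± 0.395% with control siRNA (SD, n = 2 each). The level of LOXL2 itself gave no call, and a share also rises when other members fall. The share of LOX was 10.7 ± 1.17% with PELP1 siRNA and 16.5 ± 0.146% with control siRNA. LOXL3 held 6.44% with PELP1 siRNA and 8.71% with control siRNA, LOXL1 held 7.03% with PELP1 siRNA and 6.55% with control siRNA, and LOXL4 held 0.299% with PELP1 siRNA and 0.326% with control siRNA. LOXL2 was the most abundant member per length and LOXL4 the least under all 3 lengths used, the union of exons, the longest transcript and the canonical transcript.

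Of the lysyl hydroxylases, PLOD2 and PLOD1 fell and PLOD3 did not pass the threshold. PLOD2 hydroxylates the telopeptide lysines of collagen, from which pyridinoline cross-links form. It lies on the minus strand of chromosome 3 (GRCh37 145752926 to 145881512) and had 540 and 489 CPM with PELP1 siRNA, against 636 and 669 CPM with control siRNA. The groups did not overlap. The means were 515 ± 35.7 CPM with PELP1 siRNA and 653 ± 23.5 CPM with control siRNA (SD, n = 2 each), and the level fell by 21.2% (log2 fold change -0.34, SE 0.064, adjusted p = 2.81e-04). Without control siRNA library 2 the adjusted p was 0.0504, the highest of its 11 alternatives, with a log2 fold change of -0.31.

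PLOD1, which hydroxylates lysines of the triple helix, had 260 and 271 CPM with PELP1 siRNA, against 308 and 312 CPM with control siRNA. Its gene lies on the plus strand of chromosome 1 (GRCh37 11994262 to 12035595), and like PLOD2 it shares no exon bases with another annotated gene. The log2 fold change was -0.22 (SE 0.063, adjusted p = 0.00961). The call was lost without control siRNA library 1 (adjusted p = 0.208) and without control siRNA library 2 (0.253), in a range of 1.72e-08 to 0.253 over its 11 alternatives. PLOD3, which also carries glycosyltransferase activity, had 127 and 133 CPM with PELP1 siRNA and 126 and 124 CPM with control siRNA. Its log2 fold change was 0.054 (95% interval -0.086 to 0.20, adjusted p = 0.589).

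Counts of PLOD2 per count of PLOD3 were 4.24 and 3.69 with PELP1 siRNA, against 5.04 and 5.38 with control siRNA. PLOD2 per PLOD1 was 2.08 and 1.804 with PELP1 siRNA, against 2.07 and 2.15 with control siRNA, so the groups overlapped in this ratio. Which of PLOD1 and PLOD2 was more abundant per length depended on the length taken. PLOD2 held 32.7% of the family with PELP1 siRNA and 35.9% with control siRNA over the union of exons, and 50.3% with PELP1 siRNA and 54.0% with control siRNA over canonical transcripts.

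P4HA1, a catalytic subunit of prolyl 4-hydroxylase, was the 1 enzyme that rose. It had 126 and 121 CPM with PELP1 siRNA, against 109 and 100.2 CPM with control siRNA, from 2481 and 2289 counts with PELP1 siRNA and 2104 and 2245 counts with control siRNA. Once scaled by library, both PELP1 siRNA libraries lay above both control siRNA libraries. The means were 123 ± 3.78 CPM with PELP1 siRNA and 104 ± 5.89 CPM with control siRNA (SD, n = 2 each), and the log2 fold change was 0.24 (SE 0.071, adjusted p = 0.0137). The call was lost without control siRNA library 1 (adjusted p = 0.124) and without control siRNA library 2 (0.398), in a range of 6.85e-07 to 0.398 over its 11 alternatives. P4HA1 lies on the minus strand of chromosome 10 (GRCh37 74766975 to 74856732).

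P4HA2, the alternative catalytic subunit, had 228 and 230 CPM with PELP1 siRNA and 249 and 247 CPM with control siRNA. It lies on the minus strand of chromosome 5 (GRCh37 131525840 to 131631008) and shares 5.41% of its exon bases with P4HA2-AS1. Its groups did not overlap, but its log2 fold change of -0.12 did not pass the threshold (95% interval -0.25 to 0.013, adjusted p = 0.174). It was called lower only without PELP1 siRNA library 1 (log2 fold change -0.11) or 2 (-0.12). In those fits the spread comes from the control siRNA pair alone. Its log2 fold changes ran from -0.13 to -0.068 over its alternatives. Counts of P4HA1 per count of P4HA2 were 0.552 and 0.525 with PELP1 siRNA, against 0.436 and 0.405 with control siRNA. The partner subunit P4HB (protein disulfide isomerase) stood at 1127 ± 44.9 CPM with PELP1 siRNA and 1290 ± 17.2 CPM with control siRNA (SD, n = 2 each), a log2 fold change of -0.19 (adjusted p = 0.0168). That call was lost without control siRNA library 1 (adjusted p = 0.242), without control siRNA library 2 (0.317) and with total-count scaling (0.0673). Over the union of exons P4HA1 held 63.8 ± 0.810% of the summed P4HA1 and P4HA2 transcripts with PELP1 siRNA and 57.9 ± 1.26% with control siRNA (SD, n = 2 each). Over the longest transcript it held 46.3% with PELP1 siRNA and 40.2% with control siRNA, so which subunit was more abundant per length depended on the length taken. P4HA1 counts per P4HB count were 0.115 and 0.104 with PELP1 siRNA, against 0.0850 and 0.0770 with control siRNA.

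**Figure D3:**
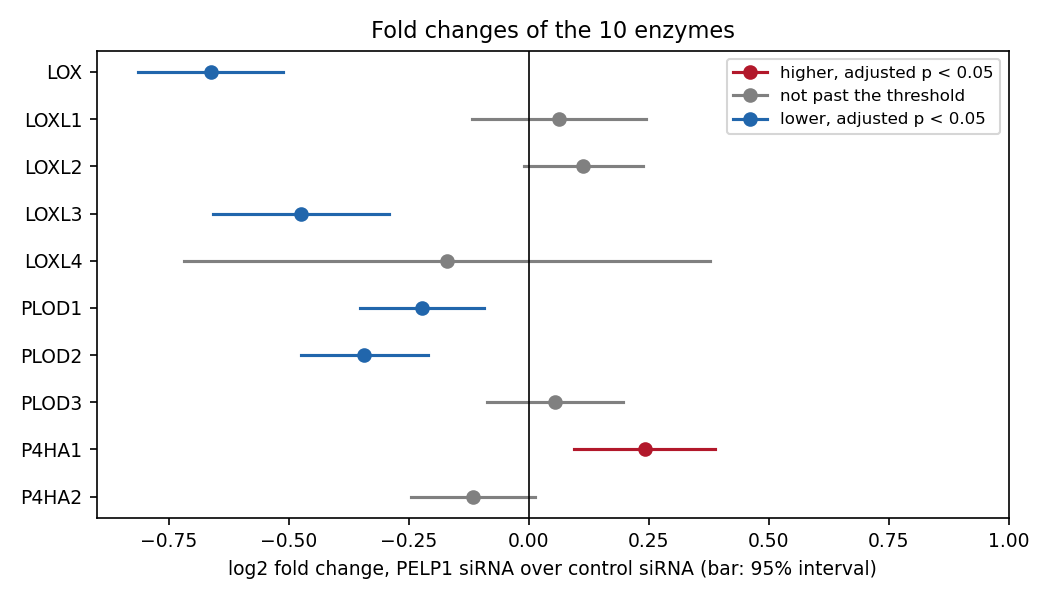
Log2 fold change of each enzyme, PELP1 siRNA over control siRNA, with its 95% interval from edgeR; blue marks enzymes called lower, red the enzyme called higher and grey those not past the threshold. LOX lies furthest from 0 at -0.66 and the interval of LOXL4 is the widest.

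Promoter windows show how the members differ in 1 known regulatory word. The 5-base word ACGTG is the form with A in first place of the core of the hypoxia response element, the site bound by HIF-1. It was searched on both strands of the 300 bases from 250 before to 50 after each start in the RefSeq promoter table (build GRCh38.p14), which matched 9 of the 10 enzymes. For LOX and LOXL3, which have more than 1 listed start, the most upstream start was used. LOX had 4 matches, PLOD2 had 2, P4HA1 had 1, and LOXL1, LOXL3, LOXL4, PLOD1, PLOD3 and P4HA2 had none in this window. Of 27305 promoter windows in the table, 21.6% held at least 1 match, 8.97% at least 2 and 0.886% at least 4; a CACGTG counts on both strands. The form with G in first place, GCGTG, occurred 2 times in PLOD1 and 1 time in PLOD2, and in 36.4% of all windows. The windows with a match are shown 5′ to 3′ on the gene's strand, with ACGTG or its reverse complement CACGT in capitals, because these 3 enzymes moved in both directions.
LOX (chr5:122078210-122078509, GRCh38.p14, minus strand): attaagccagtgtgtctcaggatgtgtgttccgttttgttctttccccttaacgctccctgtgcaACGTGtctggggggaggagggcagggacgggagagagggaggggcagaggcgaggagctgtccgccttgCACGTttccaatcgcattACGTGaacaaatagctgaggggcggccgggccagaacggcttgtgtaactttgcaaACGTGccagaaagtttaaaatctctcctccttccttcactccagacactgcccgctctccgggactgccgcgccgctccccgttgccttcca
PLOD2 (chr3:146161135-146161434, GRCh38.p14, minus strand): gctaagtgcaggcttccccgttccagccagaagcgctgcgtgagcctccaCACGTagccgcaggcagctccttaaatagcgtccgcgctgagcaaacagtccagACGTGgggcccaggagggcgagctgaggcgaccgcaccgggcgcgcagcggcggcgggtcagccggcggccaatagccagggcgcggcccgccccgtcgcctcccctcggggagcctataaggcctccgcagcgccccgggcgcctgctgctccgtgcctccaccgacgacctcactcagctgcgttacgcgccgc
P4HA1 (chr10:73096817-73097116, GRCh38.p14, minus strand): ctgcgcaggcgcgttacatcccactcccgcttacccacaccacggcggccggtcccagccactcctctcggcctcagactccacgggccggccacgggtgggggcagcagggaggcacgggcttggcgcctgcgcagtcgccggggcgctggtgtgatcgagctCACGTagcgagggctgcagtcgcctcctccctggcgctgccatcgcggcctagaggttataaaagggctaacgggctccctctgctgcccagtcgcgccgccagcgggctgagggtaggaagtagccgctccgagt
Counted from the start, the matches lay at -185, -116, -98 and -42 in LOX, at -200 and -146 in PLOD2 and at -86 in P4HA1. Of the enzymes with ACGTG in this window, LOX and PLOD2 fell and P4HA1 rose with PELP1 siRNA. PLOD1, with GCGTG but not ACGTG, fell, and so did LOXL3, with neither form. Whether these words bear on the changes was not tested. A match is not shown to be a bound site.

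**Figure D4:**
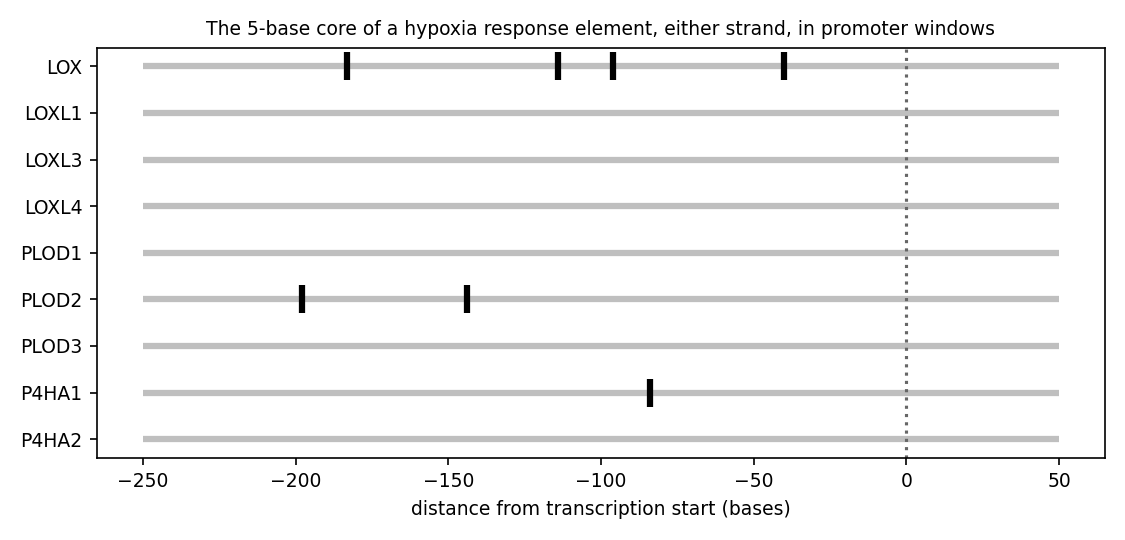
Position of each match to the 5-base core word, on either strand, in the promoter windows of the 9 enzymes found in the table; the grey line is the window, the dotted line the transcription start and the axis the distance from it in bases. LOX has 4 marks, PLOD2 has 2 and P4HA1 has 1.

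The enzymes were also searched for the 7-base words CTCAGTT and GCCTTGA in their 3′ UTRs. Both words had been picked on the fold changes of these same libraries, so their presence is no independent evidence here. In the canonical 3′ UTRs of GENCODE v44lift37 (GRCh37), 3 of the 10 enzymes carried either word, against 25.2% of 12306 tested genes with a 3′ UTR. LOX carried GCCTTGA close to the end of its 3′ UTR, and P4HA1 and LOXL4 carried CTCAGTT. The sites are shown 5′ to 3′ with 9 bases on each side and the word in capitals, to set the 1 lower carrier beside the higher one and the one not called.
LOX (chr5:121398909-121398915, GRCh37, minus strand): tataaaaatGCCTTGAataaatgat
P4HA1 (chr10:74767643-74767649, GRCh37, minus strand): tcactacatCTCAGTTggtgggtgt
LOXL4 (chr10:100008356-100008362, GRCh37, minus strand): tcaggagctCTCAGTTtcttaggga
LOX, the carrier of GCCTTGA, fell. Of the carriers of CTCAGTT, P4HA1 rose and LOXL4 differed by -0.17 on the log2 scale with no call (adjusted p = 0.668). These are different words, and an effect of either word was not tested. The other 3 lower enzymes, LOXL3, PLOD2 and PLOD1, carried neither word.

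Of the genes that act on procollagen beside these enzymes, 22 had enough counts, and 7 rose, 1 fell and 14 gave no call, with a median log2 fold change of 0.092. The called share was 36.4%, against 27.9% of all genes tested (12.9% higher and 15.0% lower). All 4 genes now named P3H1, P3H2, P3H3 and P3H4 rose, a group picked out by name after its values were seen. LEPREL1 (now P3H2), a prolyl 3-hydroxylase of basement membrane collagen, had 44.8 and 46.6 CPM with PELP1 siRNA, against 20.6 and 24.1 CPM with control siRNA (log2 fold change 1.03, SE 0.097, adjusted p = 2.85e-08). LEPRE1 (P3H1), which works in a complex with CRTAP and PPIB, rose by 0.27 on the log2 scale (adjusted p = 0.00669), LEPREL2 (P3H3) by 0.28 (adjusted p = 0.0136) and LEPREL4 (P3H4) by 0.27 (adjusted p = 0.0203). The calls of those 3 were lost without control siRNA library 1 (adjusted p 0.162 for LEPRE1, 0.104 for LEPREL2 and 0.205 for LEPREL4) and without control siRNA library 2 (0.213 for LEPRE1, 0.248 for LEPREL2 and 0.294 for LEPREL4), while LEPREL1 kept its call without any 1 library. The log2 fold change of LEPREL2 was 0.14 without PELP1 siRNA library 2 and 0.42 without PELP1 siRNA library 1.

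The partners of P3H1 stayed below the threshold: CRTAP had a log2 fold change of 0.0097 and the proline isomerase PPIB one of -0.043, as did the collagen chaperone SERPINH1 with -0.027. ADAMTS3, a procollagen N-proteinase, stood at 21.1 ± 0.102 CPM with PELP1 siRNA and 12.4 ± 0.184 CPM with control siRNA (SD, n = 2 each), a log2 fold change of 0.77 (adjusted p = 9.03e-06). The other N-proteinases of the list, ADAMTS2 (-0.092, adjusted p = 0.785) and ADAMTS14 (0.24, adjusted p = 0.662), had low counts and gave no call. The enhancers of procollagen C-proteinase also rose: PCOLCE2 by 0.63 (adjusted p = 1.30e-04) and PCOLCE by 0.25 (adjusted p = 0.0330). PCOLCE lost its call without control siRNA library 1 (adjusted p = 0.214), control siRNA library 2 (0.360) or PELP1 siRNA library 2 (0.107), and with DESeq2 (0.0774). Its log2 fold change was 0.13 without PELP1 siRNA library 2. P4HB, given above, was the 1 lower gene. Without control siRNA library 1 the list had 3 higher and 0 lower genes, and without control siRNA library 2 also 3 and 0. With PELP1 siRNA library 1 left out it had 9 higher and 2 lower, and with PELP1 siRNA library 2 left out 7 higher and 4 lower.

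Among genes that activate lysyl oxidases or supply their copper, 8 had enough counts, of which 2 rose, 2 fell and 4 gave no call. The share called was 50%, over few genes, against 27.9% of all genes tested. The median log2 fold change was -0.052, and TLL1, TLL2, POSTN, FBLN1 and FBLN2 were under the filter. FN1 (fibronectin), on which LOX is processed, stood at 2294 ± 0.544 CPM with PELP1 siRNA and 3195 ± 105 CPM with control siRNA (SD, n = 2 each), a log2 fold change of -0.48 (adjusted p = 1.26e-06). ATP7A, the pump that loads copper onto lysyl oxidases in the secretory path, had 22.4 and 18.2 CPM with PELP1 siRNA, against 29.8 and 26.0 CPM with control siRNA (log2 fold change -0.45, adjusted p = 0.00316). Its adjusted p was 0.133 without control siRNA library 1. SLC31A1, the copper importer, rose by 0.20 on the log2 scale (adjusted p = 0.0358), which was not called with the replicate block (0.0541), with DESeq2 (0.0714) or without control siRNA library 1 (0.452) or 2 (0.262). MFAP4, a microfibril-associated protein, rose by 0.41 (adjusted p = 0.00110) and was not called without control siRNA library 2 (0.0706). BMP1, the proteinase that removes the LOX propeptide, had 46.1 and 50.9 CPM with PELP1 siRNA and 43.7 and 43.3 CPM with control siRNA (log2 fold change 0.16, adjusted p = 0.187). Leaving out control siRNA library 1 gave 1 higher and 1 lower gene in the list, and leaving out control siRNA library 2 gave 0 higher and 2 lower. Leaving out PELP1 siRNA library 1 gave 3 higher and 2 lower, and leaving out PELP1 siRNA library 2 gave 2 higher and 3 lower.

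Among the substrates, some fibrillar collagen chains rose and others gave no call. Of the 13 collagen and elastin genes with enough counts, 4 rose, 1 fell and 8 gave no call. The called share was 38.5%, against 27.9% of all genes tested, and over so few genes is no result about the group. The median log2 fold change of these genes was 0.11. COL5A2, a chain of type V collagen, had 281 and 266 CPM with PELP1 siRNA, against 128 and 127 CPM with control siRNA (log2 fold change 1.10, SE 0.066, adjusted p = 1.23e-11). COL1A2 stood at 996 ± 36.7 CPM with PELP1 siRNA and 732 ± 6.70 CPM with control siRNA (SD, n = 2 each), a log2 fold change of 0.44 (adjusted p = 5.55e-06). COL5A1 rose by 0.49 (adjusted p = 5.82e-06) and COL11A1, at 3.02 CPM with PELP1 siRNA and 1.53 CPM with control siRNA, by 0.98 (adjusted p = 0.00326; 0.0579 with DESeq2). Other fibrillar chains were not called: COL1A1 (log2 fold change -0.064, adjusted p = 0.523), COL3A1 (0.015), COL5A3 (0.11) and COL27A1 (-0.27, adjusted p = 0.0760). COL6A3, a chain of the beaded filament collagen VI, fell by 0.23 on the log2 scale (adjusted p = 0.00445; 0.247 without control siRNA library 1 and 0.107 without control siRNA library 2), which left 0 lower genes in the list without either of those libraries and 3 lower genes without PELP1 siRNA library 2. The other listed chains of collagen VI, COL6A1 (0.13, adjusted p = 0.133) and COL6A2 (-0.019, adjusted p = 0.847), gave no call. Elastin (ELN), the other main substrate, was at or under 0.812 CPM in all 4 libraries.

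Hypoxia-induced genes made up a list of 25 that does not hold the 10 enzymes. All 25 had enough counts, and 3 rose, 5 fell and 17 gave no call, with a median log2 fold change of 0.031. The called share of 32% was near the 27.9% of all genes tested, so the count is no result about these genes as a group. VEGFA, the vascular growth factor, had 304 and 306 CPM with PELP1 siRNA, against 468 and 458 CPM with control siRNA (log2 fold change -0.60, adjusted p = 9.23e-08). PGK1, a glycolytic kinase, fell by 0.51 on the log2 scale (adjusted p = 6.29e-07), the enolase ENO2 by 0.37 (adjusted p = 1.57e-04) and ANGPTL4 by 0.74 (adjusted p = 2.52e-04). CA12, a carbonic anhydrase, fell by 0.24 on the log2 scale (adjusted p = 0.00511; 0.183 without control siRNA library 1 and 0.170 without control siRNA library 2). The 3 higher genes were PDK1 (0.36, adjusted p = 0.00284), SLC2A3 (0.28, adjusted p = 0.00587) and EGLN3 (1.00, adjusted p = 0.0115), on the log2 scale. EGLN3 was low, at 2.02 CPM with PELP1 siRNA and 1.01 CPM with control siRNA. None of these 3 was called without control siRNA library 1 (adjusted p 0.100 for PDK1, 0.161 for SLC2A3 and 0.0676 for EGLN3) or without control siRNA library 2 (0.0884 for PDK1, 0.187 for SLC2A3 and 0.0999 for EGLN3). EGLN3 was also not called without PELP1 siRNA library 2 (0.0749) or with DESeq2 (0.131). Leaving out either control siRNA library gave 0 higher and 4 lower genes in the list, and leaving out PELP1 siRNA library 2 gave 4 higher and 8 lower. CA9, a common marker of hypoxia, had 29.6 and 33.6 CPM with PELP1 siRNA and 29.7 and 30.6 CPM with control siRNA, with overlapping libraries and no call (adjusted p = 0.642).

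Among 9 other 2-oxoglutarate-dependent oxygenases and their relatives, 2 rose, 0 fell and 7 gave no call, with a median log2 fold change of 0.076. The called share of 22.2% was under the 27.9% of all genes tested and is no result about the group. P4HTM, a transmembrane prolyl 4-hydroxylase, rose by 0.27 on the log2 scale (adjusted p = 0.0190; 0.313 without control siRNA library 1 and 0.215 without control siRNA library 2). PHYH, which hydroxylates phytanoyl-CoA, rose by 0.27 (adjusted p = 0.0317; 0.0908 with DESeq2, 0.491 without control siRNA library 1 and 0.126 without control siRNA library 2). The list thus had 0 higher genes without either control siRNA library, and 3 without PELP1 siRNA library 2.

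**Figure D5:**
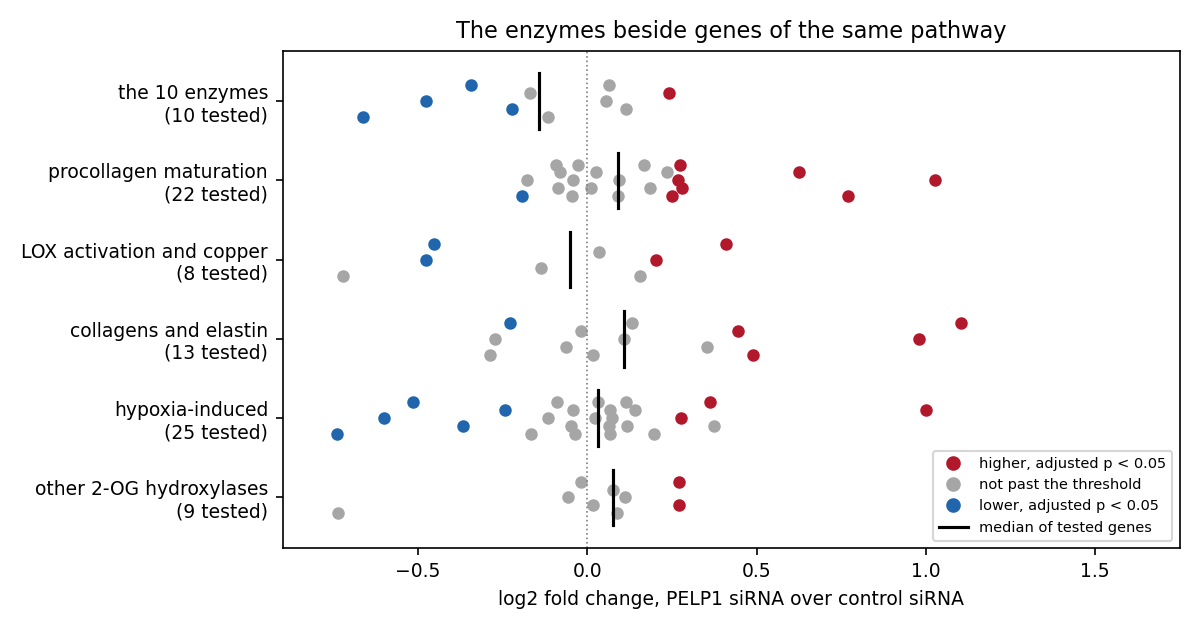
Log2 fold change, PELP1 siRNA over control siRNA, of each tested gene in the 10 enzymes and in 5 other lists. Red points were called higher, blue lower and grey neither, and black bars are medians. The median of the enzymes is -0.14, that of procollagen maturation genes 0.092 and that of collagens and elastin 0.11.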

How the data were processed

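RNA-seq was measured in 4 libraries, 2 with PELP1 siRNA and 2 with control siRNA, grouped by the sample titles. The authors deposited raw read counts per gene symbol for each library. Per the submitters' processing notes, CASAVA 1.8.2, TopHat2 2.0.8b and HTSeq were used with build hg19 (GRCh37); the sources used here do not give the HTSeq version, its strand setting or its annotation. Per the labels' protocols, libraries were made from total RNA and read as 50 bp single ends. The 5 summary lines of the counter, 36.0 to 37.6% of each column, were left out. Intervals cover the spread between libraries as modelled, and the labels mention no molecular identifiers.

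Counts were filtered with filterByExpr (minimum count 10, minimum total 15), which kept 13234 of 23228 genes, and TMM-scaled. The model was edgeR's robust quasi-likelihood fit (edgeR 4.0.16, run in R 4.3.3), with group as its single term. Adjusted p are Benjamini-Hochberg values over all genes tested, called under 0.05. The SE is the log2 fold change divided by the root of its F statistic. Alternatives used DESeq2 1.42.0, limma-voom (limma 3.58.1), other scalings and filters, a replicate block and each library left out. The fit was tested on simulated data with planted changes. Libraries of 1 group differed beyond sampling noise (chi-square per gene of 6.80 for PELP1 siRNA and 2.03 for control siRNA), so none were merged.

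Exon lengths, shared exon bases and 3′ UTRs came from GENCODE v44lift37, and promoters from the RefSeq table. The members and lists were chosen with earlier results of these data known. Named beside the 10 enzymes and PELP1 are, by rule, up to 2 called genes per list and direction, those of lowest adjusted p; other genes are named with their values already known.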

Additional observations from a re-analysis of the deposited data

How the results depend on the processing

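LOX, LOXL3, LOXL1, LOXL4 and PLOD3 kept their direction and side of the threshold in all alternatives that could be fitted; LOXL4 was not tested with the filter of 5 CPM in 2 libraries. Chi-square per gene was 6.80 between the PELP1 siRNA libraries and 2.03 between the control siRNA libraries. Fits without 1 library assume that the lone sample varies like the other group, whose pair alone gives the spread. Among such fits, the calls of PLOD1, PLOD2 and P4HA1 were lost only where a control siRNA library was left out. LOXL2 and P4HA2 gained one only where a PELP1 siRNA library was left out. The SE of PLOD1 was 0.12 without control siRNA library 1 and 0.041 without PELP1 siRNA library 1. The cause was not tested. Log2 fold changes without 1 library ran from -0.25 to -0.19 for PLOD1, -0.41 to -0.27 for PLOD2, 0.18 to 0.30 for P4HA1, 0.081 to 0.15 for LOXL2 and -0.12 to -0.11 for P4HA2. No log2 fold change of an enzyme changed sign. LOXL2 was also called with total counts (0.16), and that scaling turned the balance of calls over all genes, with 2272 higher and 1597 lower against 1712 higher and 1980 lower.

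Counts over all genes without 1 library were 523 to 2724 higher and 943 to 2804 lower, and DESeq2 called 1133 higher and 1427 lower. Without 1 library the enzymes had 0 to 2 higher and 2 to 5 lower, procollagen maturation genes 3 to 9 higher and 0 to 4 lower, lysyl oxidase activation and copper genes 0 to 3 higher and 1 to 3 lower, substrates 0 to 3 lower, hypoxia-induced genes 0 to 4 higher and 4 to 8 lower, and other oxygenases 0 to 3 higher. With total counts 2 enzymes were higher and 0 procollagen maturation genes lower. With no filter 2 procollagen maturation genes and 2 substrates were lower, and DESeq2 called 1 higher gene each among the activation genes and the other oxygenases.

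Samples share only a replicate number: deviations of same-numbered libraries had a correlation of -0.041. With the replicate block 1613 genes were higher and 1968 lower, and the activation and copper list had 1 higher gene instead of 2; no other list count or enzyme call changed.

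With the longest transcript as length, shares for PELP1 siRNA and control siRNA were 80.6% and 74.3% for LOXL2, 7.85% and 12.4% for LOX, 39.3% and 42.8% for PLOD2 and 46.3% and 40.2% for P4HA1, against 63.8% and 57.9% for P4HA1 over the union of exons. Canonical transcripts, chosen after seeing the data, gave 79.7% and 73.5% for LOXL2, 7.76% and 12.2% for LOX, 50.3% and 54.0% for PLOD2 and 47.2% and 41.1% for P4HA1.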
